A study of Rattus norvegicus with 10 samples.

Results

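In macrophages given myelin, 10 genes of branched actin assembly were followed, namely Wasf2 and Abi1 of the WAVE complex, Washc4 of the WASH complex, Was, Wasl and Wipf1 of the WASP group, and Actr2, Arpc2, Arpc3 and Arpc5 of the Arp2/3 complex. The members were chosen by gene symbol, and every probe set whose only symbol in the array annotation was one of these names was taken. This gave 18 probe sets for 9 of the 10 genes among 31042 probe sets tested on the array. No probe set carried Was as its only symbol, so Was was not analysed here. Peritoneal macrophages of Hsdcpb:WU rats were kept for 3 days with 100 µg/ml of isolated myelin (mye-macrophages, 5 samples) or without myelin (control macrophages, 5 samples), and then all 10 cultures were stimulated for 9 hours with IFNγ and IL-1β at 100 ng/ml. Neither group was free of these cytokines, so the comparison is between myelin and no myelin in stimulated cells. The cells were adherent cells of a peritoneal lavage, the labels give no age or sex of the rats, nor do they say if each sample is a separate animal. The main comparison pairs samples by replicate number, so its p-values measure the spread of the differences within pairs. Comparisons without this pairing measure the spread between samples, and either spread may be technical.

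Macrophages move and engulf particles by pushing their membrane forward with branched networks of actin filaments. The Arp2/3 complex starts a new filament on the side of an existing one, and it is inactive until a nucleation promoting factor of the WASP family binds it. WAVE2, the product of Wasf2, does so at the leading edge when the GTPase Rac is active, N-WASP (Wasl) and WASP (Was) do so downstream of the GTPase Cdc42, and the WASH complex does so on endosomes, where cargo is sorted for recycling.

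Values are log2 signals after RMA, which corrects the background of an array, equalizes the arrays and summarizes the probes of a probe set. A difference of 1 on this scale is a 2-fold change. Levels of different probe sets cannot be set against each other as amounts of RNA. The median of all values and the means of marker lists given below are only rough marks of signal. The groups were compared with limma, with a block for the replicate number of the labels (the paired fit), since same-numbered samples moved together about their group means (correlations from 0.404 to 0.791 over all probe sets). A pair is the control and the mye-macrophage sample of 1 number. A probe set is called lower or higher at an adjusted p under 0.05, the adjustment running over the 15521 probe sets that varied most by interquartile range (the variance filter). Of the 18 member probe sets, 12 lay in this filter and 6 did not.

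In mye-macrophages 2 member probe sets fell, 1 of Wasf2 and 1 of Washc4, and no member probe set rose. Of the 12 in the filter these 2 are 16.7%, where 1.90% of all filtered probe sets were lower, 0.792% were higher and 2.69% were either. The other 10 did not pass, with adjusted p-values of 0.0512 or more in the paired limma fit. Of the 18 member probe sets, 8 were lower in 5 of 5 pairs and none was higher in 5 of 5, where 6.59% and 6.16% of all tested probe sets were. At an unadjusted p under 0.05, 8 were lower and 0 higher, where 6.62% and 5.51% of all tested probe sets were. The median log2 fold change of the 18 probe sets was -0.11, against 0.00 over all probe sets tested. The 2 groups overlapped on each of the 18, and 0.734% of all probe sets did not overlap. The members were chosen with earlier results of these data known, so these shares describe the list and are no test of it. Without the block, limma called 0 of the 18 lower or higher, with 3 at an unadjusted p under 0.05, all 3 lower (3.94% of the filtered probe sets were lower and 6.65% either at that p). The methods' t-test called 0 of the 18, with 2 at an unadjusted p under 0.05. In that test 778 of the 15521 filtered probe sets had such a p, in either direction.

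**Figure D1:**
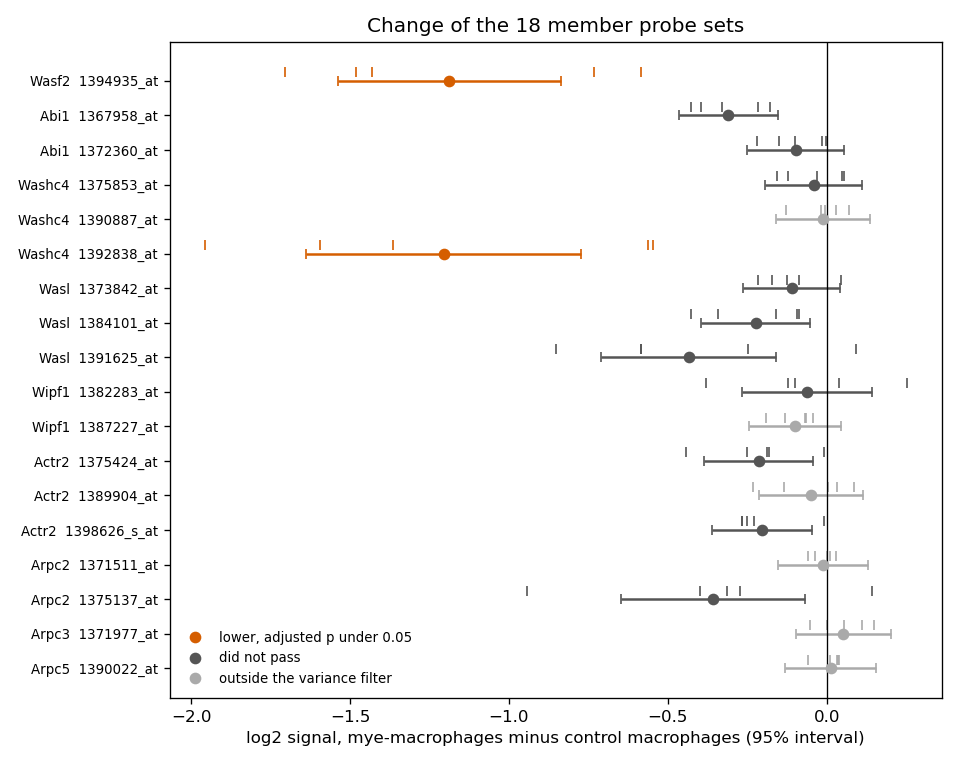
Log2 fold change of each of the 18 member probe sets (x axis, mye-macrophages minus control macrophages) with its 95% interval in paired limma, and the 5 pairs as small ticks above each point. Only Wasf2 1394935_at (-1.19) and Washc4 1392838_at (-1.21) passed an adjusted p of 0.05 and lie well to the left of the other 16.

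Wasf2 encodes WAVE2, the activator that recruits actin and the Arp2/3 complex to the leading edge. Its probe set, 1394935_at, read 6.60, 6.62, 6.41, 5.83 and 6.08 in control replicates 1 to 5 and 5.12, 6.03, 5.68, 4.40 and 4.38 in mye-macrophage replicates 1 to 5 (log2 signal). Every mye-macrophage sample was below the control sample of its pair, with mye-macrophage replicates 4 and 5 lowest, while mye-macrophage replicate 2 lay above control replicate 4, so that the groups overlapped. The mean was 6.31 ± 0.34 in control macrophages and 5.12 ± 0.74 in mye-macrophages (SD, n = 5 each). The log2 fold change was -1.19 (standard error 0.16, 95% interval -1.54 to -0.84, adjusted p = 0.0114 in paired limma), which leaves 43.9% of the control signal. The pairs ranged from -1.70 (replicate 5) to -0.59 (replicate 2). Without the block limma gave an adjusted p of 0.534, without the samples of replicate 1 the paired limma fit gave -1.11 with an adjusted p of 0.0588, and with the 3 prime minus 5 prime gap of beta-actin, a measure of RNA degradation, as a covariate it gave -1.09 with an adjusted p of 0.111. The array holds only this 1 probe set with the symbol Wasf2 alone.

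Washc4 encodes SWIP, a subunit of the WASH complex, and its 3 probe sets did not move together. Probe set 1392838_at read 5.85, 5.73, 5.23, 4.86 and 5.28 in control replicates 1 to 5 and 3.89, 5.19, 4.67, 3.50 and 3.69 in mye-macrophage replicates 1 to 5 (log2 signal). As for Wasf2, each mye-macrophage sample was below its control, replicates 4 and 5 were the lowest mye-macrophage samples, and the groups overlapped through mye-macrophage replicate 2. Its log2 fold change was -1.21 (standard error 0.19, 95% interval -1.64 to -0.77, adjusted p = 0.0193 in paired limma), or 43.4% of the control signal. This call was lost without the block (adjusted p = 0.534 from limma) and in the paired limma fit without the samples of replicate 1, 4 or 5 (log2 fold changes of -1.02, -1.17 and -1.11, adjusted p = 0.0676, 0.0673 and 0.0736). It was also lost with the beta-actin covariate (-0.96, adjusted p = 0.160 in paired limma). Probe set 1375853_at read 8.87, 9.06, 8.87, 8.70 and 9.10 in control macrophages and 8.75, 8.90, 8.92, 8.67 and 9.15 in mye-macrophages. These values interleave, and the log2 fold change was -0.04 (95% interval -0.19 to 0.11, adjusted p = 0.774 in paired limma). The third probe set, 1390887_at, lay outside the filter, with 0.72 to 0.90 in control macrophages and 0.77 to 0.89 in mye-macrophages, under the median of all values (2.32), and had -0.01 (95% interval -0.16 to 0.14).

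Probe sets 1392838_at and 1375853_at of Washc4 differed in the same direction in each pair. The change of 1392838_at minus that of 1375853_at was -1.16 ± 0.63 (SD over 5 pairs, -1.84 to -0.39), below 0 in 5 of 5 pairs (two-sided exact sign-flip permutation test, p = 0.0625, the smallest that 5 pairs allow, so the design cannot reach 0.05). The deposited values cover whole probe sets and the position of the probes in the transcript was not analysed here.

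**Figure D2:**
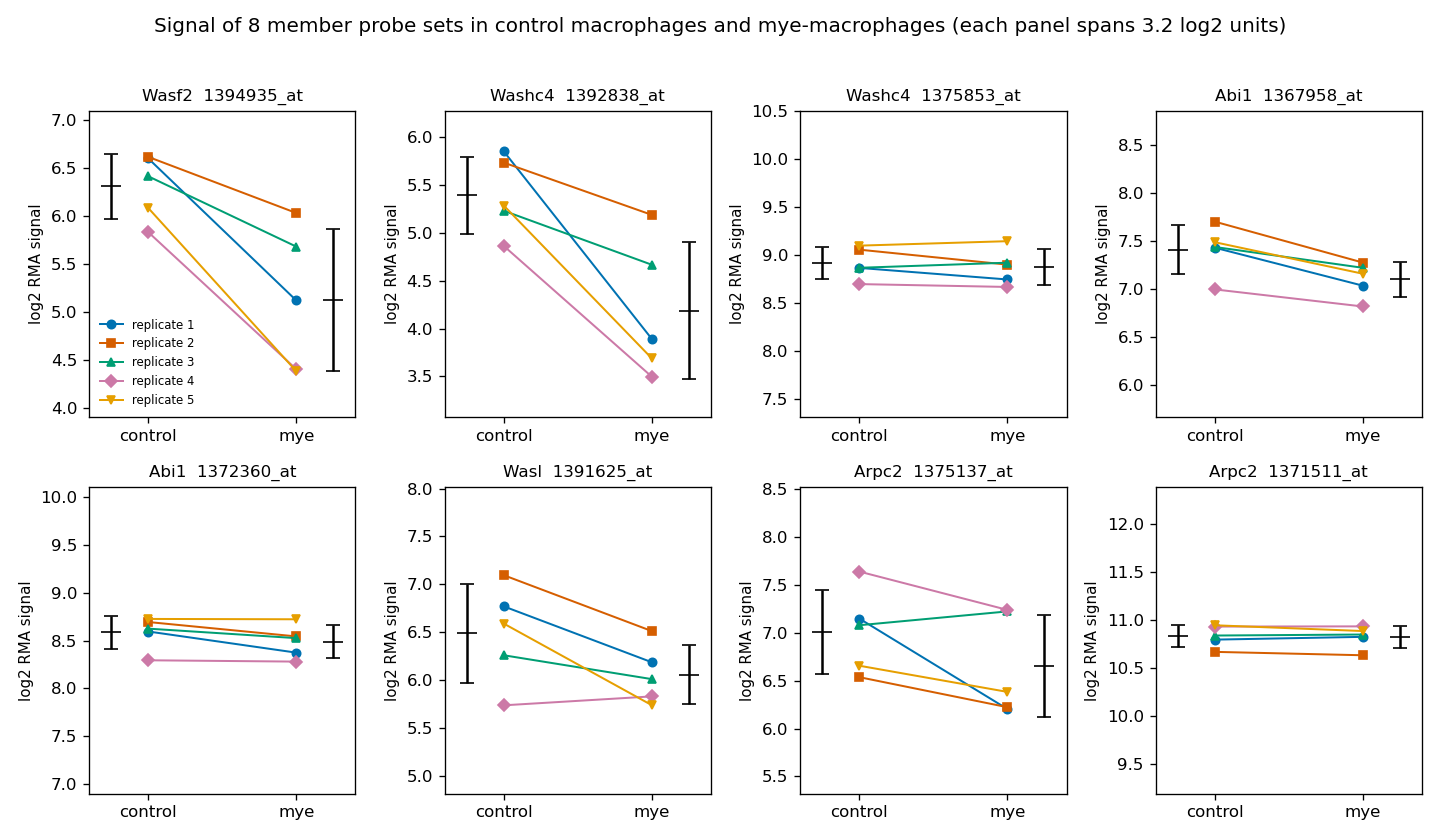
Log2 RMA signal (y axis) of 8 member probe sets, with control macrophages at left and mye-macrophages at right. Lines join the samples of a pair, the black marks stand for mean ± SD over 5 samples, and all panels span the same number of log2 units. The steep falls of Wasf2 and of Washc4 1392838_at in replicates 1, 4 and 5 stand beside the flat lines of Washc4 1375853_at and Arpc2 1371511_at.

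Wasf2 1394935_at and Washc4 1392838_at followed each other across the samples. Their log2 signals had a Pearson correlation of 0.98 over the 10 samples, 0.95 after the group means were taken out, and 0.97 without the 2 samples farthest from the median of Wasf2. The 10 samples are 5 pairs in 2 groups, and both probe sets are read on the same arrays, so this is a description with no p-value. Among all probe sets tested, Washc4 1392838_at ranked 4 in its correlation with Wasf2. The 5 probe sets of Abi1 and Wasl had correlations with Wasf2 of 0.38 to 0.80, and the remaining probe sets of the members -0.50 to 0.63, with 0.17 for Washc4 1375853_at. After the group means were taken out, these ranges became 0.19 to 0.69 and -0.79 to 0.32, with 0.11 for Washc4 1375853_at.

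**Figure D3:**
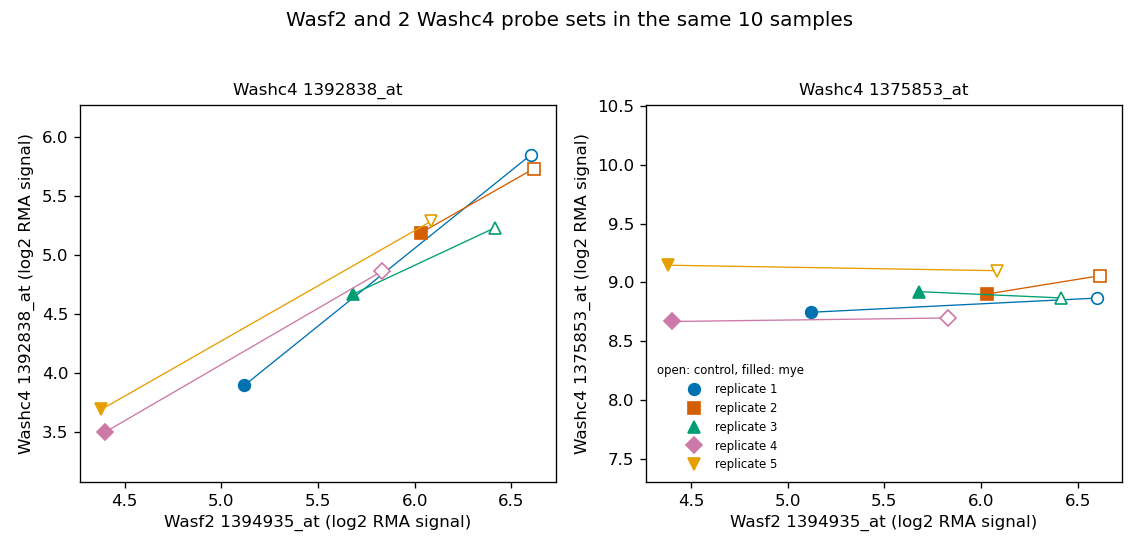
Log2 RMA signal of Wasf2 1394935_at (x axis) against Washc4 1392838_at and Washc4 1375853_at (y axes) in the same 10 samples, with control samples open, mye-macrophage samples filled and pairs joined. Washc4 1392838_at tracks Wasf2 (correlation 0.98), and Washc4 1375853_at stays between 8.67 and 9.15.

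Besides each other, the named probe sets most like these 2 belonged to genes outside the members and the pathway list. For Wasf2 the 5 with the highest correlation over the 10 samples were those of Zfp91, a zinc finger protein (0.98, log2 fold change -0.53), Slain2, which binds the growing ends of microtubules (0.98, -0.87), Dync1li1, a light intermediate chain of dynein (0.98, -0.47), Washc4 (0.98, -1.21) and the splicing factor gene Sf3b2 (0.98, -0.39). For Washc4 1392838_at they were those of Zfp91 (0.99), Swt1 (0.98, log2 fold change -0.15), Wasf2 (0.98), Med1, a subunit of the Mediator complex (0.98, -0.68), and the transcription factor gene Klf6 (0.97, -0.52). All of them but Swt1, which lay outside the variance filter, were lower in the paired limma fit (adjusted p from 0.0103 to 0.0479). The choice by correlation over both groups favors probe sets with the same group difference, so these calls are a description.

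The sequences before the starts of Wasf2 and Washc4, the 2 genes with a probe set that fell, are shown with that of Arpc3, an Arp2/3 subunit gene with a log2 fold change of 0.05. All 10 members matched the RefSeq promoter table of build GRCr8, which gives 250 bases before and 50 after a gene's start, 5′ to 3′ on the gene's strand. The windows are chr5:150620483-150620782 (+ strand) for Wasf2, chr7:22127779-22128078 (- strand) for Washc4 and chr12:39847387-39847686 (- strand) for Arpc3. Capitals mark matches on either strand to GGGCGG (the GC box), CCAAT (the CCAAT box), TTCNNNGAA (the GAS element of interferon-γ signaling), AGGTCA (a half-site of nuclear receptors) and TGACGTCA (the cAMP response element).
Wasf2: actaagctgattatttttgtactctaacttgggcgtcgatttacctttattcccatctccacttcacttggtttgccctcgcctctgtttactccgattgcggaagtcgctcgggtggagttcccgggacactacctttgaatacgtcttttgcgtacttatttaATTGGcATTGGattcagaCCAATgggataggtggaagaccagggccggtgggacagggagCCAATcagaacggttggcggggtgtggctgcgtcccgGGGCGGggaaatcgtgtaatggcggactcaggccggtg
Washc4: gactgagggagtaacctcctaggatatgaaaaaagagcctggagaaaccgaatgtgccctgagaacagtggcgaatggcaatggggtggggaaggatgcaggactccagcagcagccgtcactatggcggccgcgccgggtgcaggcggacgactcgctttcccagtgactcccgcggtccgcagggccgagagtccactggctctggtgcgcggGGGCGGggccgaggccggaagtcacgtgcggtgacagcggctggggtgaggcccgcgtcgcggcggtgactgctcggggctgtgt
Arpc3: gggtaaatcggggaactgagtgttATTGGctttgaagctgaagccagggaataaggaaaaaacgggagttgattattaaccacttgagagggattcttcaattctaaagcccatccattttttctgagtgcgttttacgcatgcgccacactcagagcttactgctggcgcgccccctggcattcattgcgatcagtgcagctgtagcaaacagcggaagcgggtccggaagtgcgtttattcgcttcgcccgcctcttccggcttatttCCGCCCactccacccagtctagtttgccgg
The Wasf2 window held 1 GC box and 4 CCAAT boxes, the Washc4 window 1 GC box, and the Arpc3 window 1 of each. GC boxes were in 8 of the 10 member windows and in 33.1% of all 33469 windows in the table, and CCAAT boxes in 3 of 10 and in 37.5%. The member windows held from 49.3% (Wipf1) to 74.7% (Arpc5) of G and C bases, against a median of 51.7% over all windows. The part of this base content in the GC box count was not tested. The GAS letters were in 1 member window, that of Abi1, and in 8.87% of all windows, while the half-site (16.2% of all windows) and the cAMP response element (1.83%) were in none of the members' windows. A match of letters is a description and no site.

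Abi1 encodes an adaptor that holds the WAVE complex together and stabilizes WAVE2, and its probe set 1367958_at was the member just outside the threshold. It read 7.43, 7.70, 7.44, 6.99 and 7.49 in control macrophages and 7.03, 7.27, 7.22, 6.82 and 7.16 in mye-macrophages (log2 signal, replicates 1 to 5). Each mye-macrophage sample was below its control sample while the groups overlapped, since replicate 4 was the lowest sample in both. The log2 fold change was -0.31 (standard error 0.07, 95% interval -0.47 to -0.15, adjusted p = 0.0512 in paired limma, and 0.702 from limma without the block). Quantile normalization, array weights and a trended and robust variance prior moved this adjusted p to 0.0486, 0.0476 and 0.00575, while the other paired settings gave 0.0536 to 0.319, the highest with the beta-actin gap as covariate. The other Abi1 probe set, 1372360_at, read 8.29 to 8.73 in control macrophages and 8.28 to 8.72 in mye-macrophages, with a log2 fold change of -0.10 (95% interval -0.25 to 0.05), and although it too was lower in 5 of 5 pairs, its samples of replicates 4 and 5 were almost level. The change of 1367958_at minus that of 1372360_at was -0.21 ± 0.09 (SD over 5 pairs) and below 0 in 5 of 5 pairs (two-sided exact sign-flip permutation test, p = 0.0625, the smallest possible).

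Of the WASP group, Wasl and Wipf1 were measured and none of their 5 probe sets passed. Wasl, the gene of N-WASP, had log2 fold changes of -0.43 (1391625_at), -0.22 (1384101_at) and -0.11 (1373842_at), with adjusted p-values of 0.0964, 0.151 and 0.399 in paired limma. Probe set 1391625_at read 6.77, 7.10, 6.26, 5.74 and 6.59 in control macrophages and 6.19, 6.51, 6.01, 5.83 and 5.74 in mye-macrophages. In 4 pairs mye-macrophages were lower and replicate 4 was slightly higher (0.09), and the 95% interval of the log2 fold change ran from -0.71 to -0.16. The change of 1391625_at differed from that of 1373842_at by -0.32 ± 0.43 (SD over 5 pairs; two-sided exact sign-flip permutation test, p = 0.188), which is within the spread of the pairs. Wipf1 encodes WIP, which binds WASP and N-WASP and protects WASP from degradation. Its probe sets read 7.21 to 7.68 against 7.11 to 7.60 (1382283_at) and 8.47 to 8.72 against 8.38 to 8.59 (1387227_at) in control macrophages and mye-macrophages, and both had intervals that include 0 (-0.27 to 0.14 and -0.24 to 0.05).

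None of the 7 probe sets of the 4 Arp2/3 genes passed. Actr2 encodes Arp2, one of the actin-related subunits that start the new filament. Its probe sets 1375424_at and 1398626_s_at had log2 fold changes of -0.21 and -0.20 (standard errors 0.08 and 0.07), with adjusted p-values of 0.165 and 0.15 in paired limma, both lower in 5 of 5 pairs. Probe set 1398626_s_at read 10.88, 10.80, 11.00, 10.77 and 10.90 in control macrophages and 10.65, 10.53, 10.99, 10.52 and 10.63 in mye-macrophages, and replicate 3, with almost no difference, was the only mye-macrophage sample above the lowest control sample. The third Actr2 probe set, 1389904_at, had -0.05 (95% interval -0.21 to 0.11), and its change exceeded that of 1398626_s_at by 0.15 ± 0.15 (SD over 5 pairs), above 0 in 5 of 5 pairs (two-sided exact sign-flip permutation test, p = 0.0625, the smallest possible).

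Arpc2 encodes a subunit that, with Arpc4, forms the structural core of the complex. Its probe set 1371511_at read 10.80, 10.67, 10.84, 10.93 and 10.95 in control macrophages and 10.82, 10.63, 10.85, 10.93 and 10.88 in mye-macrophages, so that the samples of a pair were almost level and the log2 fold change was -0.01 (95% interval -0.15 to 0.13). The other, 1375137_at, read 7.15, 6.54, 7.08, 7.64 and 6.66 in control macrophages and 6.20, 6.22, 7.22, 7.24 and 6.38 in mye-macrophages. Pair 1 differed most (-0.94) and pair 3 went the other way (0.14), and the log2 fold change of -0.36 (95% interval -0.65 to -0.07) did not pass (adjusted p = 0.165 in paired limma). Without the samples of replicate 1 it was -0.21, and -0.13 with the beta-actin covariate.

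Arpc3 and Arpc5, smaller subunits of the complex, each had 1 probe set, and both lay outside the variance filter. Arpc3 read 10.63 to 10.78 in control macrophages and 10.69 to 10.88 in mye-macrophages, with a log2 fold change of 0.05 (95% interval -0.10 to 0.20). Arpc5 read 9.77 to 10.01 and 9.72 to 10.04, with 0.01 (95% interval -0.13 to 0.15). These were the only member probe sets above 0. The intervals of Arpc3, Arpc5 and Arpc2 1371511_at leave out a change as large as that of Wasf2 or Washc4 1392838_at.

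None of the other 40 measured genes of the pathway passed. The list named 46 genes, and 58 probe sets carried the symbol of 1 of them alone, of which 28 lay in the filter and 30 did not. The paired limma fit called 0 of them, with 6 lower and 2 higher at an unadjusted p under 0.05 (6.62% and 5.51% of all tested probe sets). Limma without the block called 0, with 2 at an unadjusted p under 0.05, 1 of them in the filter (6.65% of the filtered probe sets). The methods' t-test called 0, with 2 at that p among all 58, in the filter or outside it. The count over all genes in that test, 778 of 15521, covers filtered probe sets only. The median log2 fold change was 0.02, with 23 probe sets below 0 and 35 above. The other subunits of the WAVE complex, among them Brk1, Cyfip1, Nckap1 and Nckap1l, had log2 fold changes from -0.20 (Nckap1 1388196_at) to 0.12 (Cyfip2 1374939_at). Cyfip1, which binds Rac, had -0.18 (95% interval -0.34 to -0.02, adjusted p = 0.207 in paired limma) and was lower in 5 of 5 pairs. Of the 58 probe sets of the list, 3 were lower and 3 higher in 5 of 5 pairs, where 6.59% and 6.16% of all tested probe sets were. The other 4 WASH subunits, Washc1, Washc2c, Washc3 and Washc5, lay between -0.07 (Washc3) and 0.11 (Washc5), and the other Arp2/3 genes between -0.05 (Actr3b) and 0.09 (Arpc4). Further members of the WASP and WAVE family lay between -0.01 (Whamm) and 0.16 (Wasf3).

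The regulators around the complex held the outermost values of that list. Among GTPases and adaptors, Nck2, an adaptor that links receptors to N-WASP, had -0.42 on 1398441_at (adjusted p = 0.0690 in paired limma) and 0.14 on 1390056_at, and the adaptor Trip10 had 0.14. Arpin, an inhibitor that competes for the Arp2/3 complex, had the highest value, 0.33 (95% interval 0.15 to 0.52, adjusted p = 0.0674 in paired limma). It read 4.46, 3.88, 4.17, 4.66 and 4.53 in control macrophages and 4.99, 4.35, 4.55, 4.75 and 4.71 in mye-macrophages, higher in 5 of 5 pairs with groups that overlapped. Coro1a, a coronin of leukocytes, had -0.25 (adjusted p = 0.131 in paired limma), and among capping and actin genes the values ran from -0.18 (Capza2) to 0.27 (Actg1 1384581_at).

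**Figure D4:**
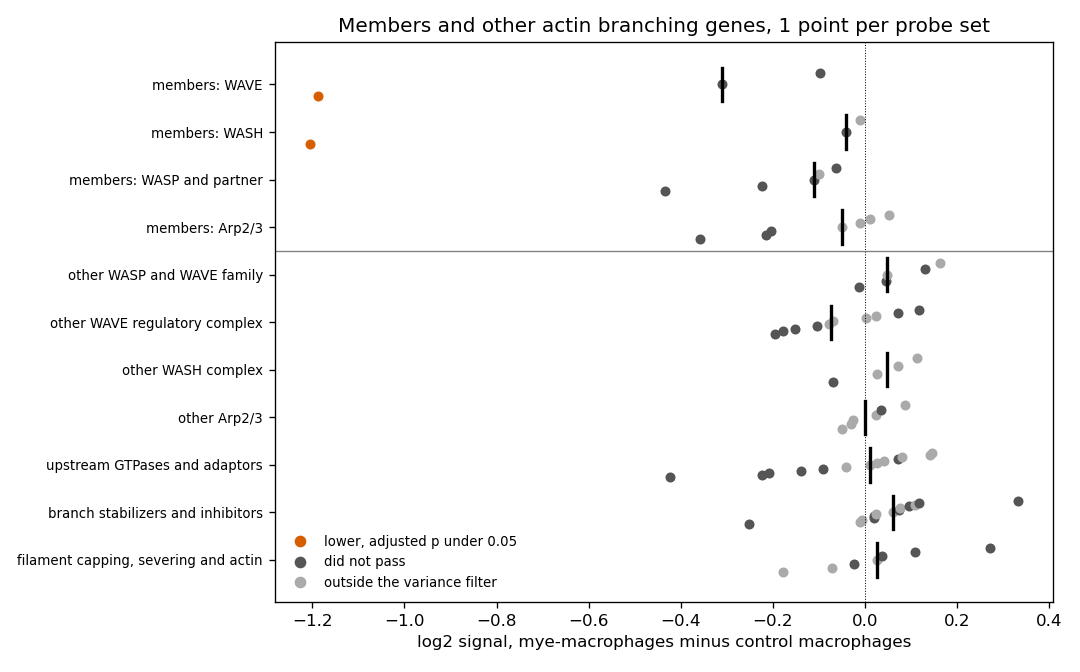
Log2 fold change (x axis) of every member probe set and of every probe set of the other pathway genes, 1 point each, grouped by role, with the median of each group as a black bar. The 2 called probe sets sit near -1.2 and all others lie between -0.43 and 0.33.

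Of the macrophage markers, 9 of 10 measured genes lay above the median of all values, with 1 probe set per gene, and the mean log2 signal of the list was 6.86 to 8.03 in control macrophages and 6.91 to 8.31 in mye-macrophages. One of the 10, Mrc1, was higher in mye-macrophages (0.71). For beta-actin, the 3 prime minus the 5 prime control signal, which grows as RNA degrades, averaged 3.02 ± 0.30 log2 units in control macrophages against 3.30 ± 0.32 in mye-macrophages (SD, n = 5 each; higher in mye-macrophages in 4 of 5 pairs; p = 0.188 in a two-sided exact sign-flip permutation test over the pairs). In pairs 1 to 5 the gap differed by 0.82, 0.45, -0.21, 0.0014 and 0.29, beside differences of -1.48, -0.59, -0.73, -1.43 and -1.70 for Wasf2 and of -1.96, -0.55, -0.56, -1.36 and -1.59 for Washc4 1392838_at. Markers of oligodendrocytes and myelin moved with the groups only in part. Of the 12 probe sets of the 7 measured genes 3 were higher, 1 each of Mbp (3.37), Mobp (3.60) and Bcas1 (1.76). Of the rest, 6 did not pass and 3 lay outside the filter, with log2 fold changes from -0.20 (Mbp) to 0.13 (Mog). The mean of the 7 genes, with 1 probe set per gene, was 3.03 to 3.57 in control macrophages and 3.86 to 4.29 in mye-macrophages. In this mean Mbp stands with its probe set of -0.20, and only Mobp and Bcas1 were called higher. Of the 7 genes, 6 lay above the median of all values. Markers of mast cells and granulocytes differed more between pairs than between groups (1.99 to 5.15 and 2.08 to 5.17 over 3 genes), those of T, B and NK cells lay at 1.17 to 1.60 and 1.11 to 1.63 and those of mesothelial cells and fibroblasts at 1.35 to 1.49 and 1.36 to 1.50. The part of these cells and of RNA quality in the member values was not tested beyond the covariate, and fewer cells of a type and less RNA per cell cannot be told apart in such samples.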

How the data were processed

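Total RNA of 10 samples was hybridized to Affymetrix rat genome arrays, 1 array per sample. The authors deposited log2 RMA values made with the affy package (versions are not given in the sources used here), which carry no counts, so the number of arrays limits the precision. The 57 control probe sets were left out. Among the 31042 others the array annotation gives 1 gene symbol to 20826, and probe sets with several symbols were not used. Groups and replicate numbers came from the sample titles. The main model was limma 3.58.1 under R 4.3.3 (lmFit, then eBayes, over all tested probe sets), blocked by replicate number. P-values were adjusted by Benjamini-Hochberg over those probe sets whose interquartile range was in the upper 50%, as large a filter as in the study. Same-numbered samples correlated at 0.404 or more in their deviations from the group means and at most at 0.279 across numbers (threshold 0.1), and the labels do not say what a number stands for. The study names an unpaired test, which was run as an alternative with limma and as the methods' t-test. The script was tested on simulated data. The values named are those of every member probe set, of the lowest and highest pathway probe set of each role, and of the 5 probe sets most correlated with each called one. Cyfip1 and Nck2 1390056_at were named after their values were seen. The members and lists were chosen with earlier results of these data known.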

Additional observations from a re-analysis of the deposited data

Results flagged for a closer look

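In 2 of the 36 groups of member values, 1 sample lay farther from the others than the critical value of Dixon's test for 5 samples (0.71), where chance flags about 5% of groups. For Actr2 1398626_s_at, mye-macrophage replicate 3 read 10.99 on the log2 scale and the other 4 mye-macrophage samples read 10.52 to 10.65. For Arpc5 1390022_at, mye-macrophage replicate 2 read 9.72 and the others read 9.96 to 10.04.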

How the results depend on the processing

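The fold changes of Wasf2 and Washc4 1392838_at kept their direction in all 24 alternatives, but many of these could not turn it. Leaving out the block, the variance filter or dim probe sets, the methods' t-test and the trended and robust variance prior do not change the estimate. All 5 pairs were lower, so leaving out a pair could not turn it either. Their calls were lost without the block, with the beta-actin covariate and without some pairs. The 2 lower member probe sets of the reported fit became 0 without the replicate block, 0 with the methods' t-test, 0 once the beta-actin gap was a covariate and 6 with a trended and robust variance prior, which added Abi1 1367958_at, Wasl 1391625_at and 2 of Actr2. With both samples of a replicate left out the count ran from 0 to 2, and with single samples left out of the fit without the block it was 0. The pathway list went from 0 to 3 lower and 1 higher with the trended and robust prior and to 1 lower with array weights, and stayed at 0 with replicates left out. With a pair left out, Wasf2 ran from -1.34 to -1.06 and Washc4 1392838_at from -1.37 to -1.02. Values near 0 turned for Washc4 1375853_at with the beta-actin covariate (0.0058) and without single samples (-0.11 to 0.011), and for Wipf1 1382283_at, which ran from -0.14 to 0.018 without a pair and from -0.13 to 0.015 without a sample. Among probe sets outside the filter, Actr2 1389904_at (0.01 with the beta-actin covariate, 0.026 without mye-macrophage replicate 2), Arpc2 1371511_at (up to 0.037), Washc4 1390887_at (up to 0.019) and Arpc5 (down to -0.026) also crossed 0 in some settings. The causes of these shifts were not tested. The number called over all probe sets moved too, from 295 lower and 123 higher to 89 and 39 without the variance filter, 654 and 387 with the trended and robust prior, 402 and 160 with array weights, 10 and 6 with the beta-actin gap, and 0 and 0 without the replicate block, while leaving out a pair gave 20 to 522 lower and 11 to 137 higher. The intervals given are no limit of detection for the adjusted call. With 5 pairs, Abi1 1367958_at (-0.31) and Wasl 1391625_at (-0.43) had intervals that left out 0 and still did not pass, so changes of that size can be missed.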
